A study of Homo sapiens with 8 samples.

Results

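The 39 genes described here encode chaperones and stress regulators of the endoplasmic reticulum (ER), the cytosol and the mitochondria. They were taken by name from the 28278 named genes of the count table. By role, 14 act in ER protein folding, 4 in ER-associated degradation (ERAD), 4 are the ER stress sensors and the transcription factor XBP1, 14 are cytosolic chaperones with the transcription factor HSF1, and 3 are mitochondrial chaperones. All 39 were in the table, and 38 passed the filter on low counts. CRYAB, a small heat-shock protein best known from lens and muscle, had 0 counts in all 8 libraries, where a floor of 3 counts corresponds to 0.068 to 0.0985 CPM, that is, counts scaled to library size.

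The libraries are poly(A) RNA-seq of SK-Hep1, a human liver cancer line known for endothelial traits, in 4 groups of 2. Sorafenib-resistant cells received an siRNA against COL6A3 plus recombinant endotrophin, the COL6A3 siRNA alone, or a control siRNA, and sorafenib-sensitive cells received the control siRNA. Sorafenib is a kinase inhibitor used in liver cancer, COL6A3 encodes a collagen VI chain, and endotrophin is the C-terminal fragment cleaved from that chain. All groups share the line, serum-containing medium and siRNA transfection, and the labels give 1 batch. No group has endotrophin without the COL6A3 siRNA, and there is 1 resistant and 1 sensitive population, so resistance and the population that carries it cannot be told apart. The labels call the libraries of a group biological replicates, and nothing further says that they came from separate cultures, so p-values measure the spread between these libraries, which may be technical.

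Totals were 30461668 to 44116043 counts per library, and 15301 to 16594 genes were detected. COL6A3, the siRNA target, had 65.9 and 71.3 CPM with siRNA plus endotrophin, 42.7 and 45 CPM with siRNA alone, 135 and 136 CPM in resistant controls, and 17.8 and 19.7 CPM in sensitive controls. The groups did not overlap, and the siRNA libraries lay below the resistant controls, as their labels say. COL6A3 was called higher with siRNA plus endotrophin than with siRNA alone (edgeR log2 0.65, SE 0.11, adjusted p = 0.000739). These groups thus differ in target mRNA as well as in added endotrophin, and the part of this difference in the chaperone results was not tested. Of the hepatocyte markers ALB, APOA1, TTR and FGA were at 0 counts in all 8 libraries, and of the endothelial markers CLDN5 was at 0 and PECAM1 had at most 5 counts. Of these lists 2 of 12 hepatocyte and 3 of 9 endothelial markers passed the filter. The secreted protease inhibitor SERPINA1 had 493 to 2147 counts per library and was called higher with siRNA alone (log2 0.58) and with siRNA plus endotrophin (log2 1.01), each against resistant controls. The endothelial receptor gene TIE1 had 36 to 303 counts and was called higher in resistant against sensitive controls (log2 2.40) and lower with siRNA alone against resistant controls (log2 -1.34). The other endothelial markers tested, VWF and ESAM, had the opposite sign in both comparisons and were not called. The median log2 fold changes of the endothelial list there were -1.71 and 0.71. The fibroblast marker list summed to 39.7 to 42.0 FPKM in the 4 COL6A3 siRNA libraries, with or without endotrophin. In the 4 control siRNA libraries it summed to 14.7 to 17.3 FPKM. Most of this difference was COL1A1, with 22.2 to 26.4 FPKM in the COL6A3 siRNA libraries and 1.73 to 5.26 FPKM in the controls. In the COL6A3 siRNA libraries ACTA2, the next most abundant, overlapped sensitive controls (12.8 and 10.9 FPKM) and lay above resistant controls (9.04 and 7.85 FPKM). The part of these markers in the chaperone results was not tested. In bulk RNA, fewer cells of a kind and less RNA per cell cannot be told apart.

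Proteins that enter the ER fold with the help of the Hsp70 chaperone HSPA5, the Hsp90 chaperone HSP90B1, lectin chaperones and disulfide isomerases. When unfolded protein builds up, the sensors IRE1 (gene ERN1), ATF6 and PERK (gene EIF2AK3) start the unfolded protein response, in which ATF6 and spliced XBP1 turn on folding and ERAD genes. The cytosol has a separate system: HSF1 binds heat-shock elements and turns on Hsp70, Hsp90, Hsp40 and small heat-shock genes. Mitochondria import most of their proteins unfolded and fold them with the Hsp70 HSPA9 and the chaperonin of HSPD1 and HSPE1.

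Each gene was tested in 4 comparisons with edgeR's quasi-likelihood test, and a gene is said to have risen or fallen where the Benjamini-Hochberg adjusted p over all 15684 genes tested was below 0.05. Fold changes are log2 values with a standard error (SE), the group named first over the second. The SE was taken as the absolute log2 fold change over the square root of the test's F statistic. The spread behind F is drawn in large part from all genes together (17.4 prior against 4 residual degrees of freedom). The comparisons share groups of libraries, so their results are not independent and are set side by side. With 2 libraries against 2, an exact permutation test of a single gene cannot give a 2-sided p under 0.333. The shares of all genes called, given below as background, are not matched for expression level. Many members are abundant: by mean FPKM HSPA5 stood at percentile 98.5 and HSPA8 at 99.7 of the genes tested. Others are not, such as ERN1 at 38.2. Abundant genes had small SE (0.048 for HSPA8), so small changes could be called. The part of abundance in the shares of members called was not tested.

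In resistant controls against sensitive controls, 2 members rose, 6 fell and 30 were not called. Over all genes tested, 6.52% rose and 9.3% fell, 15.8% together, against 21.1% of the members tested. HSPA5, MANF and the small heat-shock gene HSPB1 fell, and the sensor gene ERN1 and the Hsp110 gene HSPH1 rose. The median log2 fold change of the members was -0.11, against 0.01 for all genes tested.

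With the COL6A3 siRNA against resistant controls, 2 members rose, 14 fell and 22 were not called. The background was 11.4% of genes higher and 10.9% lower, 22.3% together, and 42.1% of the members tested were called. The 14 that fell were 8 ER folding genes, 1 ERAD gene, 4 cytosolic chaperones and 1 mitochondrial chaperone. The ERAD adaptor gene SEL1L and HSPB1 were the 2 that rose. The median member had a log2 fold change of -0.19, against 0.00 for all genes tested.

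With endotrophin added to the siRNA, against the siRNA alone, 1 member rose, 8 fell and 29 were not called. Over all genes 4.41% rose and 3.36% fell, 7.77% together, against 23.7% of the members tested. The Hsp70 genes HSPA8, HSPA1A and HSPA1B fell most clearly, and XBP1, EDEM1, HERPUD1, CANX and HSPH1 also fell. The 1 that rose was HSPA9. The median log2 fold change was -0.09 for the members and 0.00 for all genes tested.

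Comparing siRNA plus endotrophin with resistant controls, 1 member rose, 15 fell and 22 were not called. The background was 10.1% of genes higher and 8.93% lower, 19% together, and 42.1% of the members tested were called. HSPB1 was the 1 that rose. The median log2 fold change was -0.21 for the members and 0.00 for all genes tested. By group mean, 16 of the 38 tested members were lowest with siRNA plus endotrophin, 16 with siRNA alone, 2 in resistant controls and 4 in sensitive controls. In the same order of groups, 0, 4, 11 and 23 were highest. The same shares over all genes tested were not computed, so this order may not be particular to the members.

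**Figure D1:**
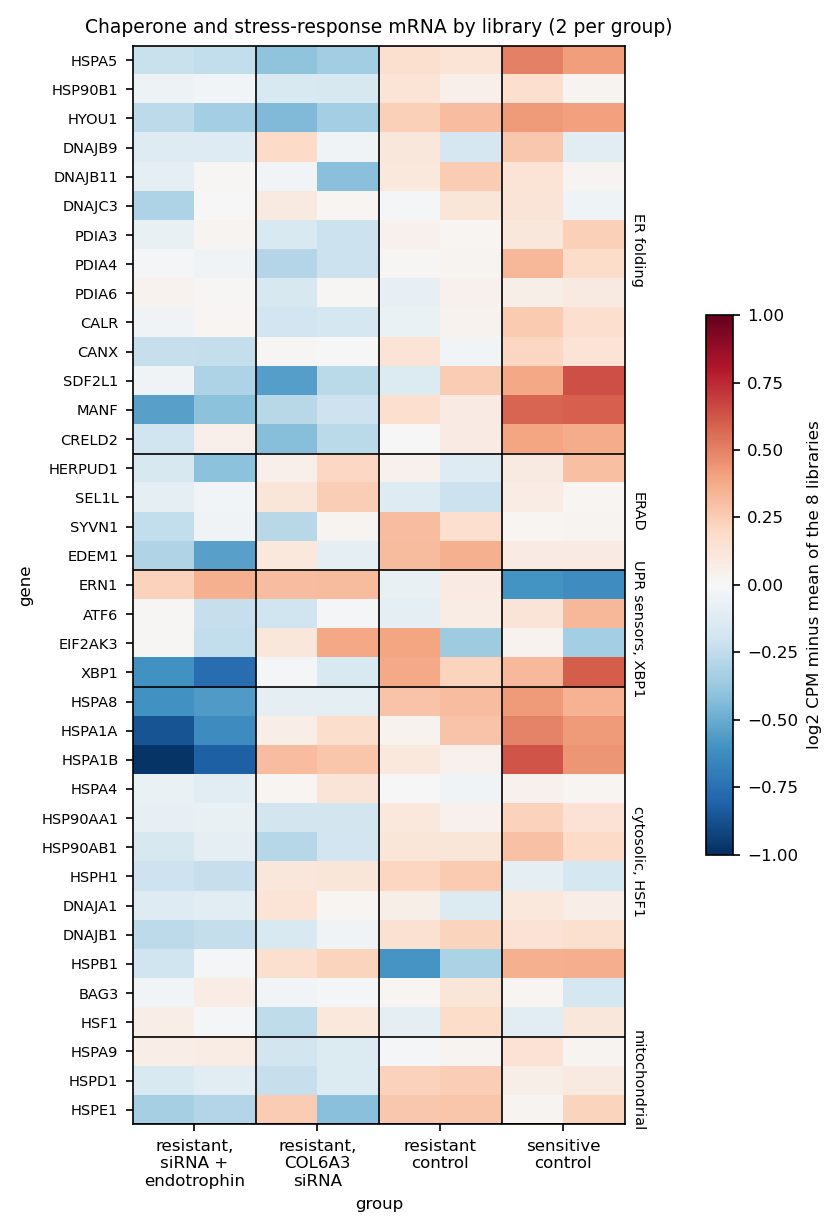
Level of each member in each library, as log2 CPM minus the mean of the 8 libraries, with rows grouped by role and the 2 libraries of a group side by side; HSPB8 and CRYAB, with few or 0 counts, are left out. Among the darkest blue cells are those of HSPA1A, HSPA1B and XBP1 in the libraries with siRNA plus endotrophin. Of the 14 ER folding genes, 12 have their highest group mean in sensitive controls, a share not computed over all genes.

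Promoters of 6 members are shown as examples of the elements of the ER and the heat-shock programmes. They were chosen for holding an exact match, and HSPA1A, HSPA1B, HSPB1 and MANF held none. Each is a RefSeq window on GRCh38.p14, 250 bases before and 50 after the transcript start, printed 5′ to 3′ on the strand of the gene. Capitals mark exact matches to the ER stress elements ERSE (CCAAT, 9 further bases, then CCACG) and ERSE-II (ATTGG, 1 further base, then CCACG), to the core of the unfolded protein response element (TGACGTGG), or to a heat-shock element of 3 units (GAA, TTC and GAA, with 2 further bases between units). Both strands were searched. HSPA5 lies on chromosome 9, with the window at chr9:125241294-125241593 on the minus strand. HYOU1 is on chromosome 11 at chr11:119057156-119057455, minus strand, and HERPUD1 on chromosome 16 at chr16:56931892-56932191, plus strand. The first XBP1 window is at chr22:28800520-28800819, minus strand. HSPA8 is at chr11:123062087-123062386, minus strand, and the second HSPD1 window at chr2:197499791-197500090, minus strand.
HSPA5: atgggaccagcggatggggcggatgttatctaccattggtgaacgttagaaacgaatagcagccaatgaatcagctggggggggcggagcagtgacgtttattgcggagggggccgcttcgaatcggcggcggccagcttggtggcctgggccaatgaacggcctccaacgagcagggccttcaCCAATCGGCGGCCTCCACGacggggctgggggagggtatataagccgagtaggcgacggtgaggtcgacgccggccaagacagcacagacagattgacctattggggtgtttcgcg
HYOU1: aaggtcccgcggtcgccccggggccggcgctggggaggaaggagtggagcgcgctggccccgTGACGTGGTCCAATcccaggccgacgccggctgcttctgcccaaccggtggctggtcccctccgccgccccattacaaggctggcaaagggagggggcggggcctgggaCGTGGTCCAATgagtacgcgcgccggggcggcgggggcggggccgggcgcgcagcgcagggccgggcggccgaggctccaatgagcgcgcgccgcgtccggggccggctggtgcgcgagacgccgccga
HERPUD1: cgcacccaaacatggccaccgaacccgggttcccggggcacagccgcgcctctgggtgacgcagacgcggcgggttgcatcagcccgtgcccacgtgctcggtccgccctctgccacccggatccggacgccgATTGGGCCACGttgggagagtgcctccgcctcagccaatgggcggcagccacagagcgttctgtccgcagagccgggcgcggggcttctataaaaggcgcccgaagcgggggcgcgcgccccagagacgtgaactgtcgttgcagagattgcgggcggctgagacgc
XBP1: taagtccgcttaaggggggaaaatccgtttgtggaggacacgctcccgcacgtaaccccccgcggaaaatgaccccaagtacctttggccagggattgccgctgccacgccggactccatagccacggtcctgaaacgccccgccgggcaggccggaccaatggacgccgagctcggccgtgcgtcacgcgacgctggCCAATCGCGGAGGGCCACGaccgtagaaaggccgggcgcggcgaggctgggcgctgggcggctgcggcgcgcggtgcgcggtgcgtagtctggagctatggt
HSPA8: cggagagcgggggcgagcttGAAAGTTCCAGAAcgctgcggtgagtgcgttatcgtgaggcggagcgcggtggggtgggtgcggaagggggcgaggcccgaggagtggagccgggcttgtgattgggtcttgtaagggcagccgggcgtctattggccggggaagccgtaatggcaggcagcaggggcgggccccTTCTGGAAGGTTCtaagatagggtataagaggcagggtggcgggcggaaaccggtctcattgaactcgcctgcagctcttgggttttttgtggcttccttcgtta
HSPD1: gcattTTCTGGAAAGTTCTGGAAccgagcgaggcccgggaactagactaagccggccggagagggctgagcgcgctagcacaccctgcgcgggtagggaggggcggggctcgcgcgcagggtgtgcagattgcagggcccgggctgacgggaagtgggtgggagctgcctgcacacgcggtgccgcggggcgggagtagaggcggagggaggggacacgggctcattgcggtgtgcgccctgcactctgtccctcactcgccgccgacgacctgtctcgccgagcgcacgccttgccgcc

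A window was found for 36 of the 39 members. ERSE was matched in 6 of 13 ER folding genes with a window (HSPA5, HSP90B1, PDIA6, CALR, CANX and CRELD2) and in XBP1, against 0.0916% of the 27305 genes of the promoter table. ERSE-II was matched in HYOU1, SDF2L1 and HERPUD1, against 0.0696% of genes. HYOU1 had 2 ERSE-II matches, of which 1 overlaps its match to TGACGTGG, a motif found in 0.927% of genes. The heat-shock element was matched in 4 of 12 cytosolic members (HSPA8, HSP90AA1, HSP90AB1 and DNAJA1) and in HSPD1, against 0.608% of genes. None of the cytosolic or mitochondrial windows matched ERSE or ERSE-II, and none of the ER windows matched the heat-shock element. A match says that the letters are present, and no match says only that these letters are not in the window.

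**Figure D2:**
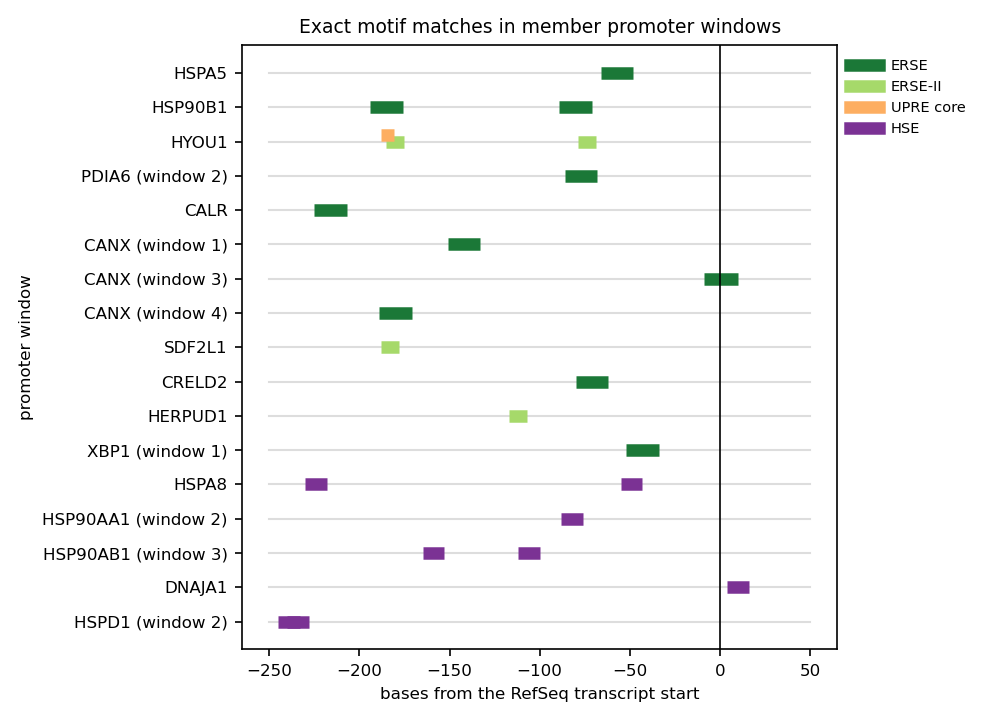
Position of each exact motif match in bases from the RefSeq transcript start (vertical line), with 1 row for each promoter window that holds a match. ERSE, ERSE-II and UPRE core matches lie in ER genes and XBP1, and heat-shock element (HSE) matches lie in cytosolic genes and HSPD1.

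HSPA5, the Hsp70 of the ER lumen that also holds the stress sensors inactive, had 674 and 662 CPM with siRNA plus endotrophin, 592 and 618 CPM with siRNA alone, 875 and 865 CPM in resistant controls, and 1111 and 1046 CPM in sensitive controls. No 2 groups overlapped. It fell in resistant controls against sensitive controls (-0.31, SE 0.061, adjusted p = 0.000851), and with siRNA alone against resistant controls (-0.52, SE 0.061, adjusted p = 1.61e-06). With siRNA plus endotrophin it also fell against resistant controls (-0.38, SE 0.061, adjusted p = 8.87e-05), while against siRNA alone the log2 difference was 0.14 (SE 0.061, adjusted p = 0.174).

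HYOU1, the Hsp110-family partner of HSPA5, had 139 and 132 CPM with siRNA plus endotrophin, 123 and 132 CPM with siRNA alone, 197 and 207 CPM in resistant controls, and 225 and 222 CPM in sensitive controls. All 4 libraries with the COL6A3 siRNA lay below all 4 without it. It fell with siRNA alone (-0.66, SE 0.087, adjusted p = 7.57e-06) and with siRNA plus endotrophin (-0.57, SE 0.087, adjusted p = 4.9e-05), each against resistant controls. The difference between the resistant and sensitive controls was -0.15 (adjusted p = 0.279).

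HSP90B1, the Hsp90 of the ER, had 1057 and 1076 CPM with siRNA plus endotrophin, 987 and 978 CPM with siRNA alone, 1205 and 1135 CPM in resistant controls, and 1229.6 and 1117 CPM in sensitive controls. The controls overlapped each other and lay above the siRNA libraries. Its 1 call was the fall with siRNA alone against resistant controls (-0.25, SE 0.060, adjusted p = 0.00343). This call ended under limma on log2(FPKM + 1) (adjusted p = 0.0569) and on log2(FPKM + 0.1) (adjusted p = 0.0589). It also ended when resistant control replicate 1 was left out (log2 -0.20).

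MANF, a secreted ER-resident factor induced by ER stress, had 60.0 and 66.0 CPM with siRNA plus endotrophin, 72.1 and 75.9 CPM with siRNA alone, 98.6 and 92.9 CPM in resistant controls, and 131 and 133 CPM in sensitive controls. The 4 groups ran in that order without overlap. MANF fell in resistant against sensitive controls (-0.46, SE 0.10, adjusted p = 0.00255) and with siRNA plus endotrophin against resistant controls (-0.60, SE 0.10, adjusted p = 0.000173). Its fall with siRNA alone against resistant controls (-0.37, SE 0.10, adjusted p = 0.0103) was lost without siRNA replicate 1 (adjusted p = 0.106) or without resistant control replicate 1 (adjusted p = 0.0942).

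Among the other folding genes, log2 fold changes with siRNA alone against resistant controls were called for 4, all lower. DNAJB11, an Hsp40 partner of HSPA5, fell by 0.39, PDIA4 by 0.27, PDIA3 by 0.22 and CALR by 0.17. PDIA3 and PDIA4 are disulfide isomerases, and CALR is a calcium-binding lectin chaperone. Each of these calls was lost in fits without a single library, which leave a group with only the other one. Under the alternatives tried, the log2 fold change ran from -0.58 to -0.19 for DNAJB11 and from -0.24 to -0.17 for PDIA3. For PDIA4 it ran from -0.29 to -0.22, and for CALR from -0.22 to -0.10. DNAJB11 lost its call without siRNA replicate 2 (adjusted p = 0.469) or without resistant control replicate 2 (adjusted p = 0.194). PDIA3 lost it without siRNA replicate 2 (adjusted p = 0.181), resistant control replicate 1 (adjusted p = 0.151) or without resistant control replicate 2 (adjusted p = 0.0991). PDIA4 lost it without siRNA replicate 1 (adjusted p = 0.166), resistant control replicate 1 (adjusted p = 0.0781) or without resistant control replicate 2 (adjusted p = 0.108). CALR lost it without any 1 of the 4 libraries (adjusted p of 0.136 and 0.108 without siRNA replicates 1 and 2, and of 0.0538 and 0.402 without resistant control replicates 1 and 2).

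PDIA4 and CALR also fell in resistant against sensitive controls, by 0.24 and 0.23 on the log2 scale. PDIA4 was no longer called without resistant control replicate 1 (adjusted p = 0.218), resistant control replicate 2 (adjusted p = 0.141) or without sensitive control replicate 1 (adjusted p = 0.332). The call also ended when only the 2 groups were fitted (adjusted p = 0.0712) and with the replicate number as a block (adjusted p = 0.0525). CALR was no longer called without resistant control replicate 1 (adjusted p = 0.173) or without sensitive control replicate 1 (adjusted p = 0.0932). CANX, the membrane-bound lectin chaperone paired with CALR, was called where CALR was not: it fell with siRNA plus endotrophin by 0.24 against siRNA alone and by 0.29 against resistant controls. CANX had 1087 and 1080.1 CPM with siRNA plus endotrophin, 1289.6 and 1278 CPM with siRNA alone, 1399.5 and 1250.2 CPM in resistant controls, and 1476 and 1407 CPM in sensitive controls. The libraries with endotrophin lay below all others, and the calls ended without siRNA plus endotrophin replicate 2 (adjusted p = 0.054, against siRNA alone) and without resistant control replicate 1 (adjusted p = 0.0536, against resistant controls).

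The folding genes with no call in any comparison were DNAJB9, DNAJC3, PDIA6, SDF2L1 and CRELD2. SDF2L1, a partner of the ER Hsp70 and Hsp40 machinery, had log2 differences of -0.45 in resistant against sensitive controls (adjusted p = 0.0861) and -0.47 with siRNA alone against resistant controls (adjusted p = 0.0586). It passed the threshold in resistant against sensitive controls without resistant control replicate 2 (adjusted p = 0.033) or without sensitive control replicate 1 (adjusted p = 0.0399), and with siRNA alone against resistant controls without siRNA replicate 2 (adjusted p = 0.0499) or without resistant control replicate 1 (adjusted p = 0.0228). With siRNA plus endotrophin against siRNA alone, 10 of the 14 folding genes had a positive log2 fold change, with a median of 0.13 and a highest value of 0.28, and of these none passed the test.

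ERAD removes misfolded proteins from the ER to the proteasome. EDEM1, which marks misfolded glycoproteins for removal, had 61.9 and 52.5 CPM with siRNA plus endotrophin, 82.1 and 71.4 CPM with siRNA alone, 95.1 and 97.6 CPM in resistant controls, and 80.8 and 80.8 CPM in sensitive controls. The endotrophin libraries were the lowest and the resistant controls the highest, with siRNA alone and sensitive controls overlapping. EDEM1 fell with siRNA plus endotrophin against resistant controls (-0.75, SE 0.11, adjusted p = 4.9e-05), and this call held without any single library. It also fell with siRNA alone against resistant controls (-0.33, SE 0.11, adjusted p = 0.0404) and with siRNA plus endotrophin against siRNA alone (-0.42, SE 0.11, adjusted p = 0.0228). Against resistant controls the siRNA call ended without siRNA replicate 2 (adjusted p = 0.383), resistant control replicate 1 (adjusted p = 0.11) or without resistant control replicate 2 (adjusted p = 0.165). The endotrophin call against siRNA alone ended without siRNA plus endotrophin replicate 2 (adjusted p = 0.314) or siRNA replicate 1 (adjusted p = 0.235).

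HERPUD1, an ER membrane scaffold of the ERAD complex whose promoter is shown above, had 56.8 and 47.7 CPM with siRNA plus endotrophin, 65.7 and 73.2 CPM with siRNA alone, 65.4 and 58.1 CPM in resistant controls, and 67.5 and 78.1 CPM in sensitive controls. The endotrophin libraries lay below the other 6. HERPUD1 fell with siRNA plus endotrophin against siRNA alone by 0.41 (SE 0.12, adjusted p = 0.0468), and the call ended without siRNA plus endotrophin replicate 2 (adjusted p = 0.433) or siRNA replicate 2 (adjusted p = 0.242). SEL1L, the adaptor of the ERAD ubiquitin ligase, had 108 and 113 CPM with siRNA plus endotrophin, 125 and 136 CPM with siRNA alone, 105 and 98.9 CPM in resistant controls, and 121 and 116 CPM in sensitive controls. The libraries with siRNA alone were the highest. SEL1L rose with siRNA alone against resistant controls by a log2 value of 0.36 (SE 0.096, adjusted p = 0.0088), a call lost without siRNA replicate 2 (adjusted p = 0.0802) or without resistant control replicate 2 (adjusted p = 0.0539). SYVN1, the ligase itself, was not called in any comparison, and its position overlaps that of MRPL49, which averaged 2730.0 counts against 831 for SYVN1.

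ERN1, which encodes the sensor IRE1, had 23.7 and 25.9 CPM with siRNA plus endotrophin, 25.0 and 25.2 CPM with siRNA alone, 19.2 and 21.4 CPM in resistant controls, and 13.3 and 13.1 CPM in sensitive controls. Every resistant library lay above both sensitive ones. ERN1 rose in resistant against sensitive controls (0.62, SE 0.17, adjusted p = 0.0162). The call ended when only the 2 groups were fitted (adjusted p = 0.0663). It also ended under limma on log2(FPKM + 1) (adjusted p = 0.0726) and on log2(FPKM + 0.1) (adjusted p = 0.0742). It was lost too without resistant control replicate 2 (log2 0.55) or without sensitive control replicate 2 (log2 0.61). ATF6, with 48.0 to 71.0 CPM over the 8 libraries, and EIF2AK3, with 10.4 to 17.4 CPM, were not called in any comparison.

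XBP1, the transcription factor whose mRNA IRE1 splices, had 23.4 and 21.0 CPM with siRNA plus endotrophin, 35.4 and 32.0 CPM with siRNA alone, 46.4 and 41.6 CPM in resistant controls, and 44.7 and 54.2 CPM in sensitive controls. The endotrophin libraries were lowest, the siRNA libraries next, and the controls overlapped. XBP1 fell with siRNA plus endotrophin against resistant controls (-0.99, SE 0.15, adjusted p = 4.12e-05) and against siRNA alone (-0.60, SE 0.15, adjusted p = 0.0124). The call against siRNA alone ended without siRNA plus endotrophin replicate 2 (adjusted p = 0.133) or siRNA replicate 1 (adjusted p = 0.101). The difference between siRNA alone and resistant controls was -0.39 (SE 0.15, adjusted p = 0.0612). Counts per gene do not separate the spliced from the unspliced XBP1 mRNA.

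**Figure D3:**
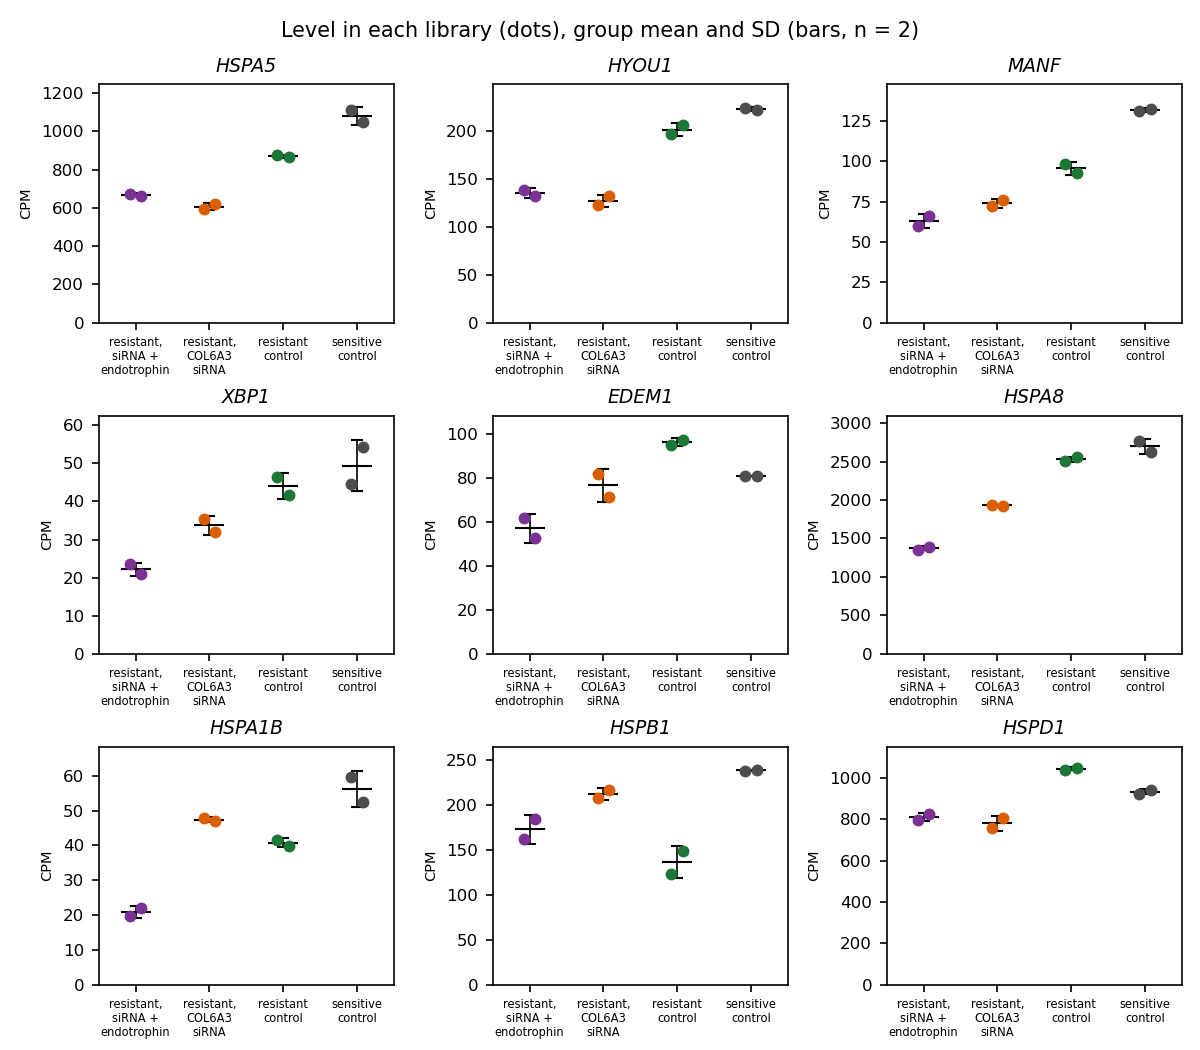
CPM of 9 members in each library (dots), with the group mean and SD (bars, n = 2), on axes that start at 0. HSPA8 and HSPA1B are lowest with siRNA plus endotrophin, HYOU1 is low in both groups with the COL6A3 siRNA, and HSPB1 is lowest in resistant controls.

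HSPA8, the constitutive Hsp70 of the cytosol, was the most abundant member by FPKM (counts per length and depth), with a mean of 941 FPKM over the 8 libraries. It had 1353 and 1389 CPM with siRNA plus endotrophin, 1936.5 and 1925 CPM with siRNA alone, 2506 and 2554 CPM in resistant controls, and 2768 and 2626 CPM in sensitive controls. No 2 groups overlapped, and the 2 libraries of each group lay close together. HSPA8 fell with siRNA alone against resistant controls (-0.39, SE 0.048, adjusted p = 3.11e-06), with siRNA plus endotrophin against siRNA alone (-0.49, SE 0.048, adjusted p = 6.37e-07), and with siRNA plus endotrophin against resistant controls (-0.88, SE 0.048, adjusted p = 2.2e-11). In resistant against sensitive controls the difference was -0.09 (SE 0.048, adjusted p = 0.211). Its 3 calls held under every alternative tried.

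HSPA1A and HSPA1B, the heat-inducible Hsp70 genes, are neighbours at chr6:31815543-31817942 and chr6:31827738-31830254 and encode nearly the same protein, so how reads were divided between them is uncertain. HSPA1A had 28.5 and 33.6 CPM with siRNA plus endotrophin, 54.5 and 58.6 CPM with siRNA alone, 53.3 and 63.2 CPM in resistant controls, and 73.3 and 69.6 CPM in sensitive controls. HSPA1B had 19.6 and 22 CPM with siRNA plus endotrophin, 47.8 and 47.0 CPM with siRNA alone, 41.6 and 39.8 CPM in resistant controls, and 59.7 and 52.5 CPM in sensitive controls. For both genes the endotrophin libraries lay below the other 6.

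In the presence of siRNA plus endotrophin, HSPA1A fell against siRNA alone (-0.86, SE 0.13, adjusted p = 0.00017) and against resistant controls (-0.91, SE 0.13, adjusted p = 2.59e-05). HSPA1B fell as well, against siRNA alone (-1.19, SE 0.14, adjusted p = 6.19e-06) and against resistant controls (-0.97, SE 0.14, adjusted p = 2.12e-05). Neither was called with siRNA alone against resistant controls, where the differences were -0.04 for HSPA1A and 0.22 for HSPA1B. Summing the counts of both genes removes the division of counted reads between them. It does not remove an effect of reads dropped or counted for both, and the counter is not known. The sum was 48.2 and 55.7 CPM with siRNA plus endotrophin and 102 and 106 CPM with siRNA alone. It was 94.9 and 103 CPM in resistant controls and 133 and 122 CPM in sensitive controls. The sum fell by 1 on the log2 scale with siRNA plus endotrophin against siRNA alone (SE 0.11, adjusted p = 2.23e-06) and in resistant against sensitive controls (-0.37, SE 0.10, adjusted p = 0.0187). In this last comparison HSPA1B fell by 0.46, a call lost without resistant control replicate 1 (adjusted p = 0.0706), resistant control replicate 2 (adjusted p = 0.105) or without sensitive control replicate 1 (adjusted p = 0.147), while HSPA1A differed by -0.29 (adjusted p = 0.131). The FPKM of both genes imply a length 5.0 times their genomic span, so their FPKM are not compared with those of other genes.

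The cytosolic Hsp90 pair, HSP90AA1 and HSP90AB1, stayed in a narrow proportion, with an FPKM ratio of HSP90AA1 over HSP90AB1 of 0.426 to 0.481 in the 8 libraries. HSP90AA1, the stress-inducible form, had 1483 and 1489 CPM with siRNA plus endotrophin, 1384 and 1383 CPM with siRNA alone, 1687 and 1620.4 CPM in resistant controls, and 1846 and 1739 CPM in sensitive controls. No 2 groups overlapped. HSP90AA1 fell with siRNA alone against resistant controls (-0.26, SE 0.052, adjusted p = 0.000868), and HSP90AB1, the constitutive form, fell there too (-0.36, SE 0.049, adjusted p = 1.32e-05). Both also fell with siRNA plus endotrophin against resistant controls, HSP90AB1 by 0.25 (adjusted p = 0.000913) and HSP90AA1 by 0.15 (adjusted p = 0.0404). The smaller HSP90AA1 call ended without any 1 of its 4 libraries (adjusted p of 0.173 and 0.153 without siRNA plus endotrophin replicates 1 and 2, and of 0.288 and 0.081 without resistant control replicates 1 and 2). Between siRNA plus endotrophin and siRNA alone the log2 differences were 0.10 for HSP90AA1 and 0.11 for HSP90AB1, neither called.

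HSPB1, a small heat-shock protein that holds unfolding proteins in solution, had 161 and 184 CPM with siRNA plus endotrophin, 207 and 216 CPM with siRNA alone, 123 and 149 CPM in resistant controls, and 237 and 239 CPM in sensitive controls. The resistant controls were the lowest group and the sensitive controls the highest, with no overlap. HSPB1 fell in resistant against sensitive controls (-0.81, SE 0.097, adjusted p = 2.43e-06) and rose with siRNA alone against resistant controls (0.64, SE 0.097, adjusted p = 4.6e-05). With siRNA plus endotrophin it rose against resistant controls (0.34, SE 0.097, adjusted p = 0.0147), a call lost without siRNA plus endotrophin replicate 2 (adjusted p = 0.191) or without resistant control replicate 1 (adjusted p = 0.221). Against siRNA alone the difference was -0.29 (SE 0.096, adjusted p = 0.066), so it was not called. It passed the threshold under DESeq2 (adjusted p = 0.0239), without a filter on low counts (0.018) and with only the 2 groups fitted (0.0437). It also passed with a replicate block (adjusted p = 0.0383) and on halved counts (0.0433). RLE scaling and both limma fits left it uncalled. Without siRNA plus endotrophin replicate 2 the difference was -0.39.

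HSPH1, the cytosolic Hsp110 that recharges Hsp70 with ATP, had 176 and 173 CPM with siRNA plus endotrophin, 219.95 and 221 CPM with siRNA alone, 235 and 243 CPM in resistant controls, and 191 and 180.2 CPM in sensitive controls. No 2 groups overlapped, with the endotrophin libraries lowest and the resistant controls highest. HSPH1 rose in resistant against sensitive controls (0.37, SE 0.082, adjusted p = 0.00288), a call lost when the library with the fewest detected genes was left out of both groups (adjusted p = 0.0686), and fell with siRNA plus endotrophin against resistant controls (-0.46, SE 0.082, adjusted p = 0.000321). It also fell against siRNA alone (-0.34, SE 0.082, adjusted p = 0.0117), a call lost without siRNA plus endotrophin replicate 1 (adjusted p = 0.0645) or replicate 2 (adjusted p = 0.0969).

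DNAJB1, the Hsp40 that delivers clients to Hsp70, fell with siRNA plus endotrophin against resistant controls (-0.44, SE 0.079, adjusted p = 0.000342). It also fell with siRNA alone against resistant controls by 0.28 (adjusted p = 0.012), a call lost without siRNA replicate 1 (adjusted p = 0.169) or without resistant control replicate 2 (adjusted p = 0.12). Its position overlaps that of TECR, which averaged 3330.0 counts against 8703 for DNAJB1. The Hsp110-related HSPA4, the Hsp40 gene DNAJA1 and the Hsp70 co-chaperone BAG3 were not called in any comparison.

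HSPB8, a small heat-shock partner of BAG3, had 27 and 14 counts with siRNA plus endotrophin, 6 and 56 with siRNA alone, 27 and 68 in resistant controls, and 0 and 10 in sensitive controls. It was not called, except in resistant against sensitive controls without sensitive control replicate 2 (adjusted p = 0.0207), where the remaining sensitive library had 0 counts. HSF1, which encodes the regulator of the cytosolic programme, had 90.1 and 85.3 CPM with siRNA plus endotrophin, 72.0 and 92.5 CPM with siRNA alone, 80.3 and 97.5 CPM in resistant controls, and 79.4 and 92.8 CPM in sensitive controls. All its groups overlapped, its log2 differences were -0.11 to 0.09, and none was called. The position of HSF1 overlaps that of DGAT1, which averaged 840.0 counts against 2987 for HSF1.

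HSPD1, the Hsp60 chaperonin of the mitochondrial matrix, had 798 and 827 CPM with siRNA plus endotrophin, 756 and 805 CPM with siRNA alone, 1041 and 1050.3 CPM in resistant controls, and 925 and 943 CPM in sensitive controls. The siRNA groups overlapped each other and lay below both control groups. HSPD1 fell with siRNA alone (-0.42, SE 0.059, adjusted p = 1.73e-05) and with siRNA plus endotrophin (-0.36, SE 0.059, adjusted p = 0.000111), each against resistant controls. In resistant against sensitive controls the difference was 0.16 (SE 0.059, adjusted p = 0.0664).

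HSPE1, the lid of the HSPD1 chaperonin, is transcribed divergently from the same promoter region, and its window shares 204 bases with the first HSPD1 window. The second HSPD1 window, printed above with its heat-shock element matches, does not overlap the HSPE1 window. HSPE1 had 50.5 and 51.9 CPM with siRNA plus endotrophin, 75.5 and 47.4 CPM with siRNA alone, 76.4 and 76.9 CPM in resistant controls, and 64.6 and 74.0 CPM in sensitive controls. The siRNA libraries were far apart, with 1 near the controls and 1 below the endotrophin libraries. HSPE1 fell with siRNA plus endotrophin against resistant controls (-0.58, SE 0.15, adjusted p = 0.00881). This call ended under limma on log2(FPKM + 1) (adjusted p = 0.0802) and on log2(FPKM + 0.1) (adjusted p = 0.0738). Between siRNA alone and resistant controls it differed by -0.32 (adjusted p = 0.145), and without siRNA replicate 1 by -0.68 (adjusted p = 0.000948). Between siRNA plus endotrophin and siRNA alone it differed by -0.26 (adjusted p = 0.369), and without siRNA replicate 2 by -0.57 (adjusted p = 0.00876).

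HSPA9, the mitochondrial Hsp70, had 561 and 561 CPM with siRNA plus endotrophin, 472 and 486 CPM with siRNA alone, 526 and 544 CPM in resistant controls, and 589.5 and 545 CPM in sensitive controls. The siRNA libraries were the lowest. HSPA9 rose with siRNA plus endotrophin against siRNA alone (0.23, SE 0.067, adjusted p = 0.0385), and the call ended without any 1 of the 4 libraries (adjusted p of 0.15 and 0.17 without siRNA plus endotrophin replicates 1 and 2, and of 0.199 and 0.0776 without siRNA replicates 1 and 2).

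**Figure D4:**
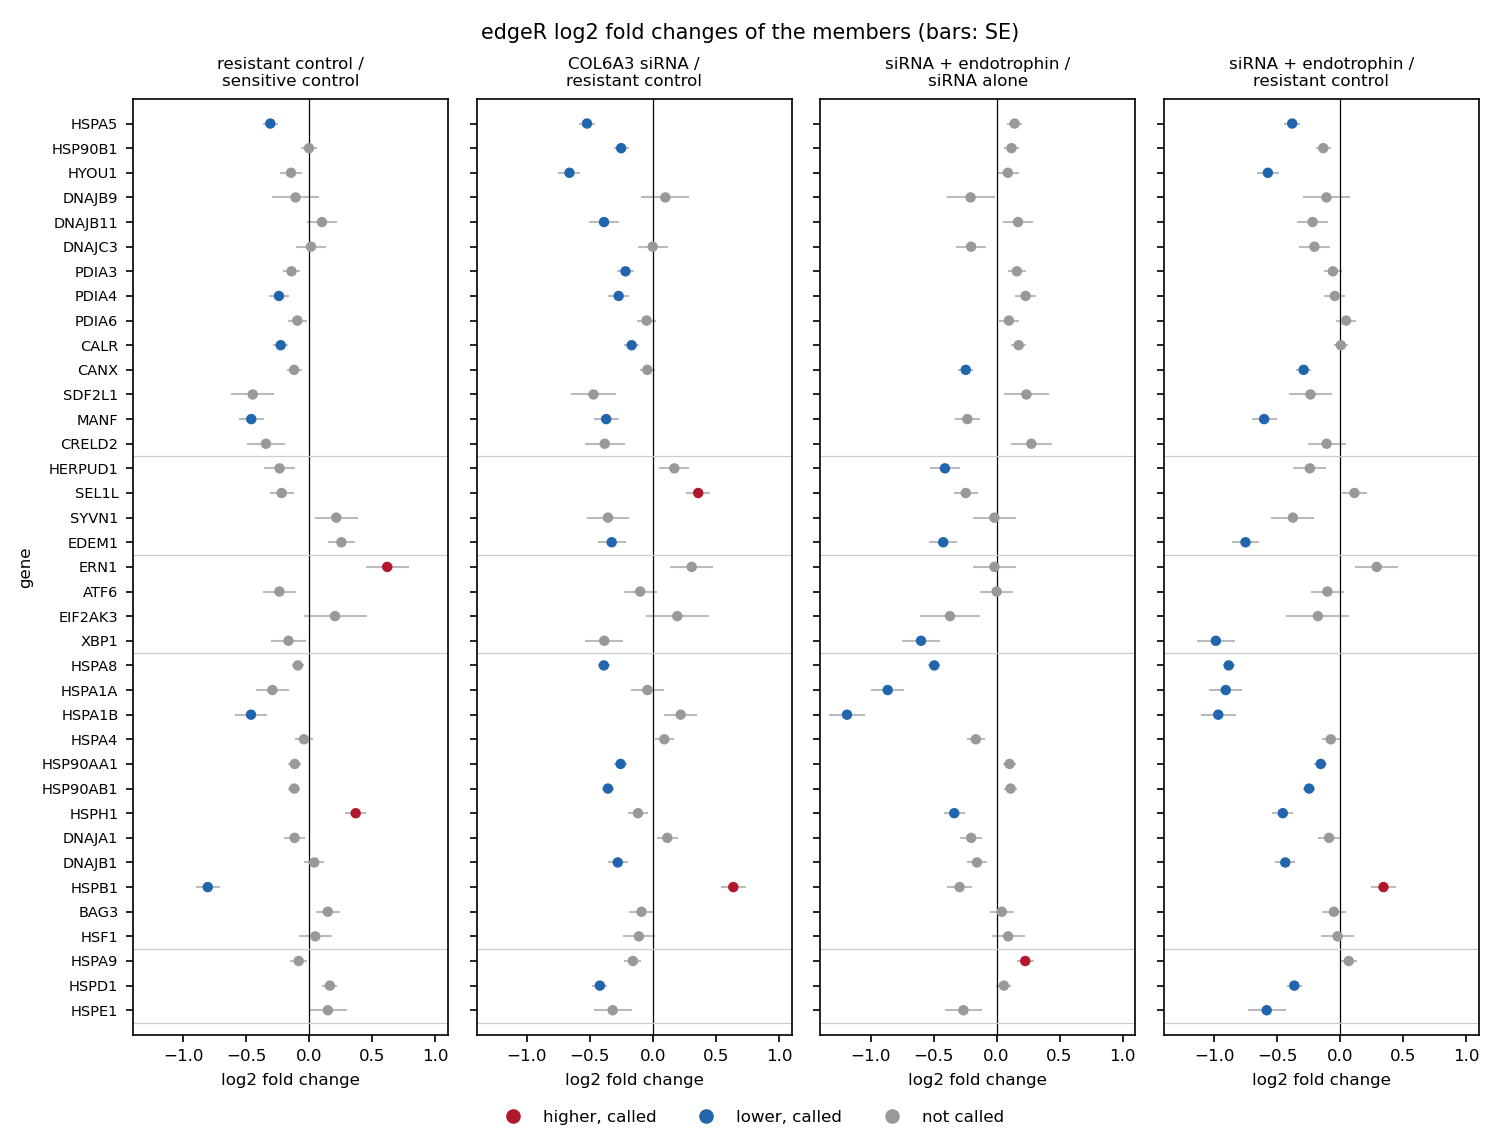
edgeR log2 fold change of each member with its SE in the 4 comparisons; colour gives the call, and HSPB8 and CRYAB are left out. With the COL6A3 siRNA against resistant controls 14 members lie on the lower side with a call, and with endotrophin added the lowest points are HSPA1B at -1.19 and HSPA1A at -0.86.

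Side by side, the compartments had these counts of calls, to be read against 15.8%, 22.3%, 7.77% and 19% of all genes called in resistant against sensitive controls, siRNA alone against resistant controls, siRNA plus endotrophin against siRNA alone, and siRNA plus endotrophin against resistant controls. Of the 14 ER folding genes, 0 rose and 4 fell in resistant against sensitive controls, and 0 rose and 8 fell with siRNA alone against resistant controls. For siRNA plus endotrophin, 0 rose and 1 fell against siRNA alone, and 0 rose and 4 fell against resistant controls. In the same order of comparisons, 28.6%, 57.1%, 7.14% and 28.6% of them were called, the third near the background, and their median log2 fold changes were -0.14, -0.26, 0.13 and -0.17.

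Of the 13 cytosolic genes tested, 1 rose and 2 fell in resistant against sensitive controls, and 1 rose and 4 fell with siRNA alone against resistant controls. Among these genes in siRNA plus endotrophin, 0 rose and 4 fell against siRNA alone, and 1 rose and 7 fell against resistant controls. The shares called were 23.1%, 38.5%, 30.8% and 61.5%, and the medians were -0.09, -0.11, -0.20 and -0.25. Of the 3 mitochondrial genes none was called in resistant against sensitive controls and 1 fell with siRNA alone, and in siRNA plus endotrophin 1 rose against siRNA alone and 2 fell against resistant controls. Their medians were 0.15, -0.32, 0.06 and -0.36, and with 3 genes a share says little. With endotrophin added to the siRNA, the medians thus lay above 0 for the ER folding and mitochondrial genes and below 0 for the cytosolic ones, a difference between lists that was not tested. Of the 4 ERAD genes, 2 fell in that comparison, with a median of -0.33, and of the 4 sensors with XBP1, 1 fell, with a median of -0.19.

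Summed FPKM weights the abundant members and describes levels, not differences. The cytosolic sum includes HSPA1A and HSPA1B at 1.55 to 6.01 FPKM, values that rest on the implied length given above. The ER folding genes summed to 1727 and 1765 FPKM with siRNA plus endotrophin, 1663 and 1669.9 FPKM with siRNA alone, 1951 and 1948 FPKM in resistant controls, and 2206 and 2102 FPKM in sensitive controls. The cytosolic genes summed to 2301 and 2385 FPKM with siRNA plus endotrophin, 2639 and 2689.9 FPKM with siRNA alone, 3104 and 3104 FPKM in resistant controls, and 3427 and 3248 FPKM in sensitive controls. For both sums no 2 groups overlapped. ER folding was lowest with siRNA alone, and the cytosolic sum was lowest with siRNA plus endotrophin. The mitochondrial genes summed to 551 and 565 FPKM with siRNA plus endotrophin, 575 and 545 FPKM with siRNA alone, 707 and 709 FPKM in resistant controls, and 632 and 644 FPKM in sensitive controls, with the siRNA groups overlapping and the resistant controls highest.

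**Figure D5:**
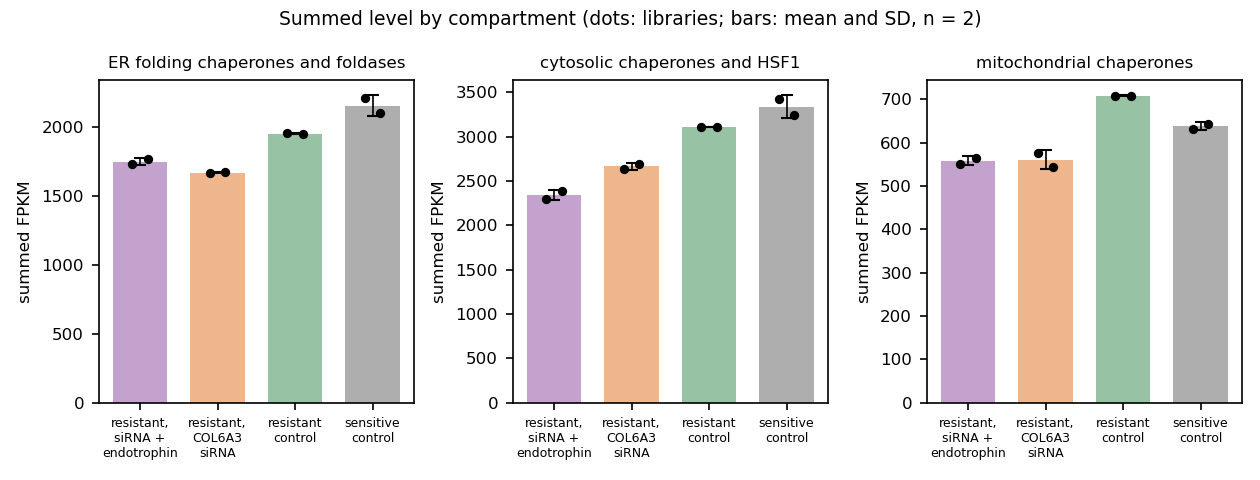
Summed FPKM of the ER folding, cytosolic and mitochondrial members in each library (dots), with the mean and SD of each group (bars, n = 2). The ER folding sum is lowest with siRNA alone, the cytosolic sum with siRNA plus endotrophin, and the mitochondrial sum is highest in resistant controls.

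The members together took 1.37% and 1.40% of all counts with siRNA plus endotrophin, 1.44% and 1.46% with siRNA alone, 1.72% and 1.69% in resistant controls, and 1.83% and 1.74% in sensitive controls. The 6 most abundant (HSPA8, HSP90AB1, CALR, HSP90AA1, HSP90B1 and HSPD1) made up 64.4% to 68.3% of the members' summed FPKM in each library. HSPA8 alone made up 12.7% and 12.7% with siRNA plus endotrophin, 17.6% and 17.3% with siRNA alone, 19.1% and 19.3% in resistant controls, and 18.9% and 18.7% in sensitive controls. The ratio of cytosolic to ER Hsp70, HSPA8 over HSPA5 by FPKM, was 3.48 and 3.63 with siRNA plus endotrophin, 5.66 and 5.40 with siRNA alone, 4.96 and 5.12 in resistant controls, and 4.31 and 4.35 in sensitive controls. Its groups did not overlap, and the endotrophin libraries were the lowest and the libraries with siRNA alone the highest.

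Read by promoter motif, the members were called as follows, beside 15.8%, 22.3%, 7.77% and 19% of all genes in the 4 comparisons. Of the 5 genes with a heat-shock element, 0 were called in resistant against sensitive controls. HSPA8, HSP90AA1, HSP90AB1 and HSPD1 fell with siRNA alone and with siRNA plus endotrophin, each against resistant controls, and HSPA8 alone fell in siRNA plus endotrophin against siRNA alone. Of the 7 genes with ERSE, 2 fell in resistant against sensitive controls (HSPA5 and CALR), 3 fell with siRNA alone against resistant controls (HSPA5, HSP90B1 and CALR), and 3 fell with siRNA plus endotrophin against resistant controls (HSPA5, CANX and XBP1). CANX and XBP1 were the 2 genes with ERSE that fell in siRNA plus endotrophin against siRNA alone. Of the 3 genes with ERSE-II, HYOU1 fell in both comparisons against resistant controls, and HERPUD1 fell in siRNA plus endotrophin against siRNA alone. HSPA1A and HSPA1B had the largest falls of the members in siRNA plus endotrophin against siRNA alone. Their windows held no exact match to these motifs, but both hold gaatattcccgac, which departs from the heat-shock pattern only in its last base. The HSPB1 window (gaaggttccagat) and the second DNAJB1 window (gaaggttctggag) do so too. Near matches were not searched for, so the group with a heat-shock element leaves these genes out. These counts are descriptions, and a difference between the motif groups was not tested.

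Other genes of the same pathways give the wider setting. Their counts are set beside the shares of all genes called, which were 15.8%, 22.3%, 7.77% and 19% in resistant against sensitive controls, siRNA alone against resistant controls, siRNA plus endotrophin against siRNA alone, and siRNA plus endotrophin against resistant controls. The chaperonin TRiC with prefoldin, which folds actin and tubulin in the cytosol, had 14 genes tested, of which 1 rose and 8 fell with siRNA alone against resistant controls. CCT4 fell by 0.42, CCT3 by 0.36 and CCT6A by 0.33. Once endotrophin was added to the siRNA, 4 rose and 0 fell against siRNA alone, led by CCT3 (0.28), TCP1 (0.29) and CCT7 (0.26), and 2 rose and 2 fell against resistant controls, among them PFDN1 (0.39), CCT4 (-0.33) and CCT8 (-0.25). In resistant against sensitive controls 0 of 14 were called. In the order of the backgrounds above, the shares called were 0%, 64.3%, 28.6% and 28.6%.

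Of 16 other mitochondrial chaperones and proteases, 7 fell and 0 rose with siRNA alone against resistant controls. The matrix protease LONP1 fell by 0.65, the membrane protease AFG3L2 by 0.69 and the mitochondrial Hsp90 TRAP1 by 0.45. Against siRNA alone, 2 rose in siRNA plus endotrophin, TRAP1 by a log2 value of 0.51 and LONP1 by 0.38, and 0 fell. In siRNA plus endotrophin against resistant controls 2 fell, AFG3L2 by 0.89 and the HSPA9 exchange factor GRPEL1 by 0.51, and in resistant against sensitive controls 1 rose, the membrane protease SPG7, by 0.46. The shares called were 6.25%, 43.8%, 12.5% and 12.5% in the same order, so that the first and the last lay below the background.

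Among 28 other HSF1 targets and cytosolic co-chaperones, 1 rose and 8 fell in resistant against sensitive controls. The Hsp40 genes DNAJA4 and DNAJB4 fell by 5.94 and 1 on the log2 scale. DNAJA4 had 0 and 8 counts in resistant controls and 316 and 229 counts in sensitive controls, so its fitted value rests on few counts. With siRNA alone against resistant controls 3 rose and 9 fell, with FKBP4, an Hsp90-binding immunophilin, at -0.80, the co-chaperone SGTA at -0.75 and the Hsp40 gene DNAJB6 at -0.67. In siRNA plus endotrophin 2 rose against siRNA alone, both Hsp90 co-chaperones, PTGES3 by 0.34 and STIP1 by 0.25, and 0 fell. Against resistant controls 3 rose and 7 fell in siRNA plus endotrophin, with CHORDC1 at -0.74, FKBP4 at -0.73 and DNAJB6 at -0.50. In the same order 32.1%, 42.9%, 7.14% and 35.7% were called, the third near the background.

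Of 21 other ER folding and quality-control genes tested, 1 rose and 2 fell in resistant against sensitive controls: the Hsp40 gene DNAJC1 rose by 0.58, and the prolyl isomerase PPIB and the PDI-related ERP29 fell by 0.78 and 0.26. With siRNA alone against resistant controls 1 rose and 5 fell. CNPY2 fell by 1.21 and the isomerase FKBP14 by 0.57, and ERO1A, the oxidase that recharges the disulfide isomerases, rose by 0.71. Against siRNA alone, 1 rose in siRNA plus endotrophin, the disulfide isomerase P4HB, by 0.28, and 0 fell. Against resistant controls 1 rose, ERO1A by 0.71, and 4 fell, with CNPY2 at -1.53 and FKBP14 at -0.53. The list was near the background throughout, with 14.3%, 28.6%, 4.76% and 23.8% called in the same order.

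Of 20 other ERAD and translocation genes tested, 2 rose and 0 fell in resistant against sensitive controls, EDEM3 (0.82) and the ERAD ubiquitin-conjugating enzyme gene UBE2J1 (0.52). With siRNA alone against resistant controls 0 rose and 3 fell, UBE2J1 by 0.53, NPLOC4 by 0.43 and UBE2G2 by 0.41. In siRNA plus endotrophin 1 rose against siRNA alone, UBE2J1 by 0.41, and 0 fell, while against resistant controls 2 rose and 2 fell, with SSR1 at 0.25, the segregase VCP at -0.32 and its cofactor NPLOC4 at -0.28. With 10%, 15%, 5% and 20% called in the same order, the list was near or below the background.

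A list of the PERK and ATF4 branch also held other ER stress genes (MBTPS1, MBTPS2, ATF6B, CREB3, CREB3L2 and WFS1). Of its 15 genes tested, 3 rose and 4 fell in resistant against sensitive controls. TRIB3, a target of ATF4, fell by 1.47, and CEBPB and the protease MBTPS1 rose by 0.76 and 0.45. With siRNA alone against resistant controls 1 rose and 2 fell, with ATF4 itself at -0.59, TRIB3 at -0.38 and the eIF2α phosphatase subunit gene PPP1R15B at 0.35. In siRNA plus endotrophin 0 were called against siRNA alone, and against resistant controls 2 rose and 3 fell, with CEBPB at -0.78, PPP1R15B at 0.54 and ATF4 at -0.43. The shares called of this mixed list were 46.7%, 20%, 0% and 33.3% in the same order, the second near the background.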

How the data were processed

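The authors deposited a table of counts per gene, not normalized, and a table of FPKM. Each FPKM is the deposited count over the library total and a divisor constant across libraries (13492 genes checked, relative spread up to 1.57e-15). Whether this divisor equals the length of the gene's transcripts was not tested. The genome build is GRCh38 per the submitters' processing notes. The aligner, counter, annotation and strand setting were not given in the sources used here, so genes that overlap others are uncertain. Per library, 72.8% to 77.6% of counts from 1 to 20 were even, against 49.6% to 50.9% of counts of at least 500, so the fit was repeated on halved counts. The table also had 1 unnamed entry, with 0 counts, which was left out.

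Counts were fitted in R 4.3.3 with edgeR 4.0.16: filterByExpr left 15684 genes, libraries were scaled by TMM (0.981 to 1.02), and the quasi-likelihood fit took all 8 libraries together, each group with its own coefficient (4 residual degrees of freedom, prior 17.4, common biological coefficient of variation 0.22). Tests were 2-sided with Benjamini-Hochberg adjustment in each comparison. CPM use the TMM-scaled totals. Floors cover counting error only. The scripts were tested on simulated data. Alternatives were RLE scaling, DESeq2 1.42.0, other filters on low counts, fits of only the 2 groups compared, a replicate block, limma 3.58.1 on log2(FPKM + 1) and log2(FPKM + 0.1), HSPA1A and HSPA1B summed, and leaving out each library.

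The members and lists were chosen with earlier results of these data known. Values in every library are given for members called with an absolute log2 fold change of at least 0.5 in any comparison and for HSPA5, HSP90B1, HSPA8, HSP90AA1, HSPD1, HSPE1, HSPA1A, HSPA1B, XBP1 and HSF1; those of CANX, HERPUD1, SEL1L, HSPH1, HSPA9, HSPB8 and CRYAB were added after their values were seen. Of each pathway list, the 3 called genes with the smallest adjusted p in a comparison are named, except 1 that is not reported here. Promoters and positions come from RefSeq tables of GRCh38.p14; HSF1, PDIA3 and CRYAB had no window there.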

Additional observations from a re-analysis of the deposited data

How the results depend on the processing

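Of 2237 values of single members under an alternative, 0 reversed a called direction, 105 dropped below the threshold and 25 passed it. Calls held under every alternative tried for 3 of 8 members called in resistant against sensitive controls, 7 of 16 with siRNA alone against resistant controls, 3 of 9 with siRNA plus endotrophin against siRNA alone, and 12 of 16 against resistant controls. Leaving out each library in turn gave, for members higher and lower, 1 to 2 and 3 to 7 in resistant against sensitive controls, 1 to 2 and 8 to 11 with siRNA alone against resistant controls, 0 and 4 to 8 with siRNA plus endotrophin against siRNA alone, and 0 to 1 and 13 to 14 with siRNA plus endotrophin against resistant controls. In resistant against sensitive controls, members higher numbered 1 instead of 2 when only the 2 groups were fitted and under limma on log2(FPKM + 1) or log2(FPKM + 0.1), and members lower numbered 3 instead of 6 under both limma fits. With siRNA alone against resistant controls, members lower numbered 9 instead of 14 under limma on log2(FPKM + 1). With siRNA plus endotrophin against siRNA alone, members higher numbered 3 under DESeq2 and 0 when only the 2 groups were fitted or under either limma fit, instead of 1, and members lower numbered 5 instead of 8 under both limma fits. Against resistant controls, members higher numbered 0 instead of 1 under both limma fits. An alternative chosen after seeing the data left out the resistant and the sensitive control library with the fewest detected genes and gave 1 member higher in resistant against sensitive controls (HSPB8, while ERN1 and HSPH1 lost their calls, adjusted p = 0.0532 and 0.0686) and 0 with siRNA plus endotrophin against resistant controls. Both limma fits ended the calls of PDIA4, CALR, ERN1 and HSPA1B in resistant against sensitive controls. They did so for HSP90B1, DNAJB11, PDIA3, CALR and EDEM1 with siRNA alone against resistant controls. With siRNA plus endotrophin they did so for CANX, HERPUD1, EDEM1 and HSPA9 against siRNA alone, and for HSP90AA1, HSPB1 and HSPE1 against resistant controls. The cause of these shifts was not tested.

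Replicate numbers did not pair the samples: deviations of same-numbered libraries from their group means correlated across 15684 genes at -0.0271 to 0.0355. With the replicate number as a block, members higher and lower numbered 2 and 5 in resistant against sensitive controls, 2 and 15 with siRNA alone against resistant controls, 1 and 9 with siRNA plus endotrophin against siRNA alone, and 1 and 15 against resistant controls. Precision rests on 2 libraries per group and not on depth for all members but HSPB8, whose highest count was 68. The alternatives were run for the members and not for the other pathway genes.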
